A study of Mus musculus with 6 samples.

Results

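The genes described here are the 10 members of the core circadian clock loop, the activators Arntl, Clock and Npas2 and the repressors Per1, Per2, Per3, Cry1, Cry2, Nr1d1 and Nr1d2, among 32301 genes and transcripts with a probe on the arrays. They were listed by name, and their probes were found through the transcript accession that the scanner files give for each probe. All 10 genes had at least 1 probe, 17 probes in all. Liver RNA was measured on 6 one-colour Agilent arrays, 1 array for each RNA sample. In 3 samples small Maf genes had been knocked out in the liver only (sMaf CKO), and 3 samples were labelled control wild type. All mice were 5 weeks of age and of 1 mixed strain background, named as 129Sv/J with C57BL/6J and ICR. The labels used here do not say which small Maf genes were deleted, which promoter drove the deletion, the sex of the mice, their feeding state or the time of day at which livers were taken. Levels of clock genes turn with the time of day, so a difference in level cannot be told apart from a difference in phase or in the hour of sampling.

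The circadian clock is a transcriptional loop with a period of about a day. BMAL1, the product of Arntl, pairs with CLOCK or with its paralog NPAS2, binds E-box motifs and activates the Per and Cry genes, whose products return to the nucleus and inhibit that same pair. The activators also induce Nr1d1 and Nr1d2, which encode the nuclear receptors REV-ERBα and REV-ERBβ. These bind RORE motifs and repress Arntl, in competition with ROR activators. A further layer acts through D-box motifs, where the PAR bZIP factors DBP, TEF and HLF activate and NFIL3 represses. In liver this loop times many metabolic genes, and the Arntl transcript runs roughly opposite in phase to those of the Per genes and Nr1d1. Small Maf proteins are bZIP factors that have no activation domain and partner the CNC and Bach factors at antioxidant response elements.

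Sequences of the regulatory windows are shown for the members on which the results turn and for the E-boxes of Per1 and Cry1. They are RefSeq promoter windows on GRCm38.p6, from 250 bases before to 50 after the annotated start. The table holds 13 windows for 9 of the members, Npas2 among them. It holds none for Per2, whose promoter was not searched. Capitals mark every match, on either strand, to the E-box CACGTG, the D-box TTANGTAA, the RORE core TAGGTCA or TGGGTCA, and the antioxidant response element core TGACNNNGC.
Arntl, RORE core that begins 31 bases into the transcript of the second window, chr7:113207529-113207558, plus strand: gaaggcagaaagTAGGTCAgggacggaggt
Per3, the 250 bases before the start, with D-box matches that begin at -205 and -158, chr4:151044666-151044915, minus strand: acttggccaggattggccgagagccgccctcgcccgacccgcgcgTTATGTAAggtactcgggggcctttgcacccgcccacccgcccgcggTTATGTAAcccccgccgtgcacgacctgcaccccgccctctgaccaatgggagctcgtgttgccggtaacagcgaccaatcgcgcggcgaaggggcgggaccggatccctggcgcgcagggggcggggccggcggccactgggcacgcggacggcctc
Per1, the 250 bases before the start of its first window, with an E-box at -166 and response element cores at -215 and -148, chr11:69098699-69098948, plus strand: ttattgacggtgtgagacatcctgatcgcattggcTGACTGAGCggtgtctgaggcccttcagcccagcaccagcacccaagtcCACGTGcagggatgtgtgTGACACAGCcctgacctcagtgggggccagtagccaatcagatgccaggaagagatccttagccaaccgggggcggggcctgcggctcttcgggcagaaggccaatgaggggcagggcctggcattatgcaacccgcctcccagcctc
Cry1, 60 bases around its E-box at -60, chr10:85185082-85185141, minus strand: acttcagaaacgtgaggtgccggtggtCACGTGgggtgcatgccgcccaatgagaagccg
Over all 32851 promoter windows of the table, 7.15% held the E-box, 2.32% the D-box, 6.45% the RORE core and 12.4% the response element core. Among the 13 windows of the members, 2 held the E-box (Per1 and Cry1), 1 the D-box (Per3), 1 the RORE core (Arntl) and 4 the response element core. Those 4 belonged to Per1, Cry1, Cry2 and Nr1d2, with 1 match in Cry2 and Nr1d2 and 2 in Per1 and Cry1, where the matches at -8 and -1 overlap. The windows of Clock, Npas2 and Nr1d1 held none of these letters. A match describes letters in the window and does not show binding.

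Levels are given as log2 of the deposited processed intensity minus the 75th percentile of the array, so they compare arrays for 1 probe and not 1 gene with another. The 75th percentile ranged from 507.9 to 1013 on the sMaf CKO arrays and from 499.5 to 638.2 on the control arrays, and 59.3% to 74.0% of spots on sMaf CKO arrays and 58.7% to 70.1% on control arrays were well above background. The number of arrays limits the precision. Slide 1 held replicates 1 and 2 of each genotype and slide 2 held replicate 3 of each, so a value from slide 2 alone sets 1 array against 1. Mafg, whose protein is a small Maf, had levels of -2.97, -4.36 and -0.76 on sMaf CKO arrays 1, 2 and 3, against 1.88, 1.87 and 2.23 on control arrays 1, 2 and 3. Its difference was -4.69 (SE 0.79, limma adjusted p = 0.0533, and 0.0207 with slide as a block). Maff (0.15, adjusted p = 0.911) and Mafk (0.21, adjusted p = 0.759) gave small differences, and whether any of these probes lies in a deleted part is not known. The 8 hepatocyte markers tested were well above background on every array. Whether the RNA samples of a genotype came from separate mice is stated only as independent samples. The limma p-values set a genotype difference against the spread between these samples, which limma moderates with that of all genes tested.

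Arntl rose and Per3 fell in sMaf CKO liver, and the other 7 measured members did not pass limma's test. The differences of Clock were positive and those of the other 6 repressors negative. Over all genes tested, 114 of 21059 passed 0.05 after Benjamini-Hochberg adjustment, a share of 0.541% (81 rose, 33 fell; 18 and 4 under quantile normalization). Among the 9 members with a tested probe, 1 rose, where 0.385% of all genes did, and 1 fell, where 0.157% did. With slide as a block the same 2 members passed, where 1.61% of all genes did. An unadjusted p under 0.05 was reached by 6 of the 9 members, against 16.8% of all genes. Of these, 2 were higher in sMaf CKO liver (8.71% of all genes) and 4 lower (8.1%). For the same 6 genes all sMaf CKO arrays lay on one side of all control arrays, against 22.9% of all genes, with 2 higher (11.3% of all genes) and 4 lower (11.6%). The members were named with earlier results of these arrays known, so these shares describe them and test nothing about the set.

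Arntl encodes BMAL1, the activator without which the loop does not run. Its log2 level was -0.51, -1.13 and -1.47 on sMaf CKO arrays 1, 2 and 3, against -3.07, -3.38 and -3.78 on control arrays 1, 2 and 3. The lowest sMaf CKO array lay well above the highest control array. The means were -1.04 ± 0.49 in sMaf CKO liver and -3.41 ± 0.36 in control liver (SD, n = 3 each), a log2 fold change of 2.37 (SE 0.32, limma adjusted p = 0.0382), or 5.19-fold. Slide 1 alone gave 2.41 and slide 2 alone 2.31, and adjusted p = 0.0124 with slide as a block. The call was lost, by adjusted p, without sMaf CKO replicate 1 (0.132), sMaf CKO replicate 2 (0.0996), control replicate 1 (0.143) or control replicate 3 (0.113), while the log2 fold change stayed between 2.11 and 2.59. Under quantile normalization the adjusted p was 0.0596 at a log2 fold change of 2.37, and under spike-in scaling 0.187 at 2.68. With probes above background on at least 1 array it was 0.065, and with no filter on dim probes 0.152. The gene was read by 1 probe, well above background on all 6 arrays.

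Clock encodes the partner of BMAL1. Its brightest probe read 1.05, 0.46 and 0.96 on sMaf CKO arrays 1, 2 and 3, against -0.50, 0.36 and 0.01 on control arrays 1, 2 and 3. The groups did not overlap, but sMaf CKO array 2 lay only just above control array 2. The log2 difference was 0.87 (SE 0.29, 95% confidence interval 0.18 to 1.55, adjusted p = 0.213). The other probes of Clock gave 0.69 and 0.87, and on those the groups overlapped. Npas2, the paralog that can take the place of CLOCK, was read by 1 probe that was not well above background on any of the 6 arrays, with levels between -7.80 and -6.56, so no difference is given.

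Per3 encodes the period protein regarded as the least needed for rhythm in mice. Its log2 level was -3.35, -2.88 and -3.60 on sMaf CKO arrays 1, 2 and 3, against -1.60, -1.10 and -1.59 on control arrays 1, 2 and 3. Every sMaf CKO array lay below every control array, at 26.5%, 36.6% and 22.2% of the mean control level. The means were -3.28 ± 0.36 in sMaf CKO liver and -1.43 ± 0.29 in control liver (SD, n = 3 each), and Per3 fell by 1.84 on the log2 scale (SE 0.27, limma adjusted p = 0.0459). The difference was -1.76 within slide 1 and -2.01 within slide 2, and adjusted p = 0.0236 with slide as a block. The call sat close to the threshold, and the adjusted p was 0.155 without sMaf CKO replicate 1, 0.084 without sMaf CKO replicate 2 and 0.161, 0.0656 and 0.12 without control replicates 1, 2 and 3. The log2 fold change lay between -2.04 and -1.68 in these fits. It was -1.08 with normexp background correction (adjusted p = 0.141), -1.88 under quantile normalization (adjusted p = 0.0597) and -1.54 under spike-in scaling (adjusted p = 0.426). The adjusted p was 0.0756 with probes above background on at least 1 array, 0.177 with no filter on dim probes and 0.0675 on slide 1 alone.

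Per1 and Per2 encode the period proteins that carry most of the repression with the cryptochromes. Per1 read 1.60, 2.45 and 1.19 on sMaf CKO arrays 1, 2 and 3, against 1.84, 1.74 and 2.47 on control arrays 1, 2 and 3. The groups overlapped widely. The difference was -0.27 (SE 0.37, 95% confidence interval -1.12 to 0.58, adjusted p = 0.747), with 0.23 within slide 1 and -1.28 within slide 2, and its sign turned with array weights, under spike-in scaling and without sMaf CKO replicate 3. Per2 read -1.28, 0.73 and -0.78 on sMaf CKO arrays 1, 2 and 3, against -0.40, 1.21 and 0.62 on control arrays 1, 2 and 3. In both genotypes replicate 2 was the highest and replicate 1 the lowest. The difference was -0.92 (SE 0.59, 95% confidence interval -2.28 to 0.44, adjusted p = 0.468), with -0.49 by the second probe. It was -0.50 without sMaf CKO replicate 1 and -1.50 without sMaf CKO replicate 2.

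The cryptochromes Cry1 and Cry2 encode the direct inhibitors of the BMAL1 and CLOCK pair. Cry2 read 0.28, 0.63 and 0.71 on sMaf CKO arrays 1, 2 and 3, against 1.49, 1.04 and 1.53 on control arrays 1, 2 and 3. All sMaf CKO arrays were below all control arrays, and the second probe had the same order between genotypes. The difference was -0.82 (SE 0.24, adjusted p = 0.171), and -0.91 by that second probe. Cry1 was dim, with 2 of 3 arrays of each genotype well above background. Its levels were -4.63, -4.66 and -5.89 on sMaf CKO arrays 1, 2 and 3, against -3.95, -3.76 and -4.54 on control arrays 1, 2 and 3. These groups just failed to overlap, with the lowest control array near the highest sMaf CKO array. The difference was -0.98 (SE 0.40, adjusted p = 0.276), but -0.56 without sMaf CKO replicate 3 and -0.11 with normexp background correction, and the arrays overlapped on its second probe (-0.81).

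The REV-ERB genes encode the repressors that act on Arntl. Nr1d2 read 1.40, 1.15 and 1.81 on sMaf CKO arrays 1, 2 and 3, against 1.90, 2.32 and 2.32 on control arrays 1, 2 and 3. The sMaf CKO arrays were lower throughout, sMaf CKO array 3 lying nearest to the controls. The difference was -0.72 (SE 0.26, adjusted p = 0.228). Nr1d1 read 0.57, -0.15 and 1.0 on sMaf CKO arrays 1, 2 and 3, against 1.64, 0.36 and 1.16 on control arrays 1, 2 and 3. Replicate 2 was the lowest of either genotype, and the groups overlapped. The difference was -0.58 (SE 0.41, 95% confidence interval -1.53 to 0.38, adjusted p = 0.513), with -0.46 and -0.25 by the other probes, -0.79 within slide 1 and -0.16 within slide 2. It was -0.27 without sMaf CKO replicate 2, -0.29 without control replicate 1 and -0.93 without control replicate 2.

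**Figure D1:**
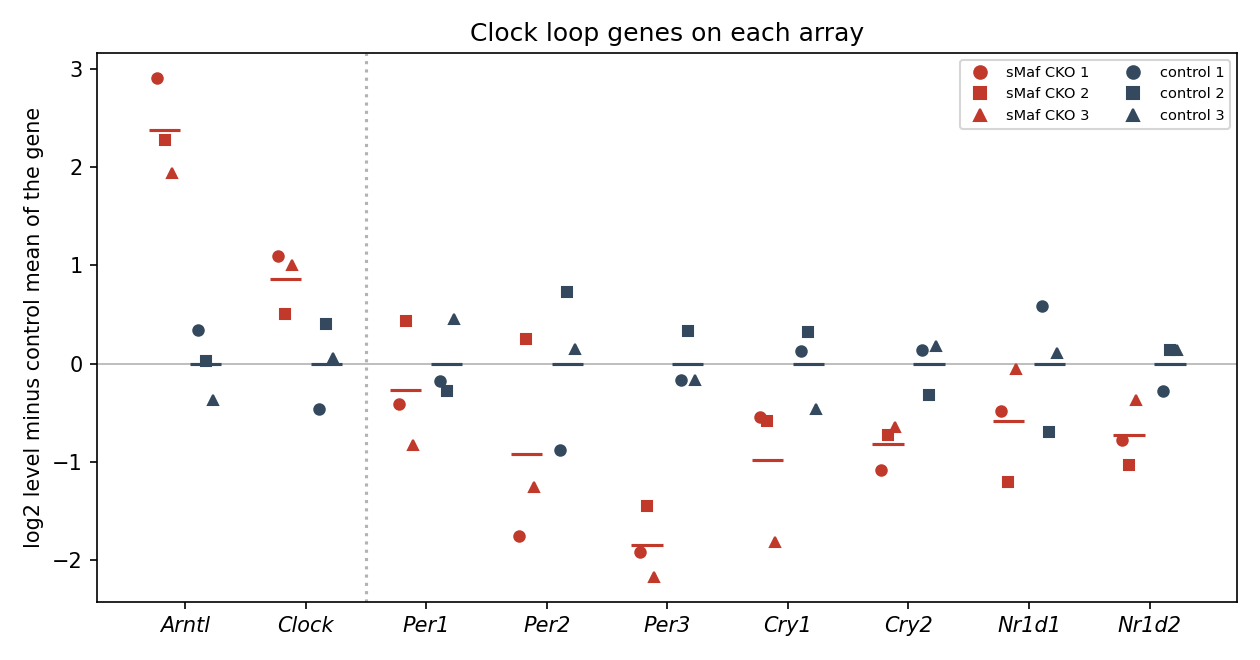
Log2 level minus the control mean of the gene (y axis) for the 9 clock loop genes with a tested probe (x axis), activators left of the dotted line, with sMaf CKO arrays in red left of control arrays in dark blue, markers for replicates and bars for group means (n = 3 each). Arntl stands apart upward with log2 levels of -1.47 to -0.51 in sMaf CKO liver and -3.78 to -3.07 in control liver, Per3 stands apart downward, and Per1, Per2 and Nr1d1 overlap.

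Where a gene had several probes they gave the same sign. This held for all 5 members with more than 1 probe kept, and 16 probes of the 9 members were kept in all. The smallest difference among these probes was -0.25, for a probe of Nr1d1.

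**Figure D2:**
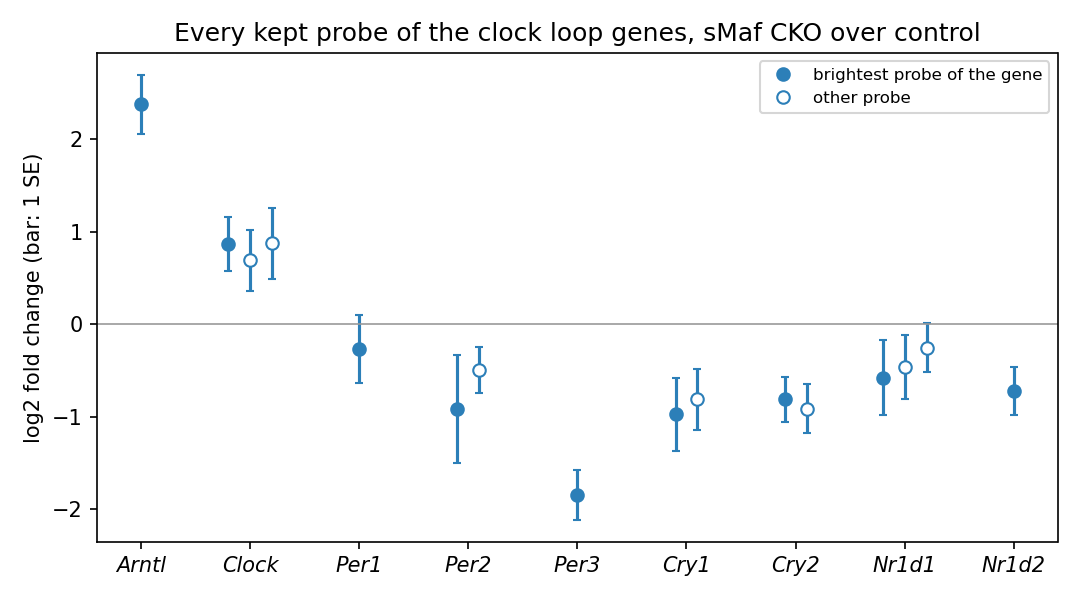
Log2 fold change of sMaf CKO over control (y axis, bar 1 SE, n = 3 arrays each) for each of the 16 kept probes of the 9 genes (x axis), the brightest probe of a gene filled and other probes open, from a fit over all kept probes. The 3 probes of Clock lie above 0, at 0.87, 0.69 and 0.87, and all probes of the repressors lie below 0.

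The arms of the loop were then compared within each array. For each array the difference of every gene from its control mean was averaged over the activators (Arntl and Clock) and over the 7 repressors. Any scaling of a whole array cancels in the activator minus repressor difference. The activator mean was 2.0, 1.39 and 1.47 on sMaf CKO arrays 1, 2 and 3, against -0.06, 0.22 and -0.16 on control arrays 1, 2 and 3. The repressor mean was -0.99, -0.62 and -1.02 on the sMaf CKO arrays, against -0.09, 0.04 and 0.06 on the control arrays. In every sMaf CKO liver the activators lay above and the repressors below their control means, with 7, 5 and 7 of the 7 repressors below. On sMaf CKO array 2 the exceptions were Per1 and Per2.

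The activator minus repressor difference was 2.99, 2.0 and 2.49 on sMaf CKO arrays 1, 2 and 3, against 0.04, 0.18 and -0.22 on control arrays 1, 2 and 3. The means were 2.50 ± 0.49 in sMaf CKO liver and 0 by construction, with an SD of 0.20, in control liver (SD, n = 3 each). The lowest sMaf CKO array stood 1.82 above the highest control array. The difference of the means was 2.39 on slide 1 and 2.71 on slide 2, and 1.74 without Arntl, 3.25 without Clock and 1.84 with normexp background correction. Since the members were chosen with results known, no p is given. Within the repressors the period and cryptochrome genes averaged -1.14, -0.41 and -1.34 on the sMaf CKO arrays, whereas the REV-ERB genes averaged -0.63, -1.12 and -0.21. The sMaf CKO array with the smallest mean shift of the period and cryptochrome genes had the largest of the REV-ERB genes. On control arrays 1, 2 and 3 the period and cryptochrome genes averaged -0.19, 0.16 and 0.03, and the REV-ERB genes 0.15, -0.28 and 0.12. Control array 2 thus had the highest period and cryptochrome mean and the lowest REV-ERB mean of the controls. The REV-ERB means of the genotypes overlapped, with sMaf CKO array 3 above control array 2.

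**Figure D3:**
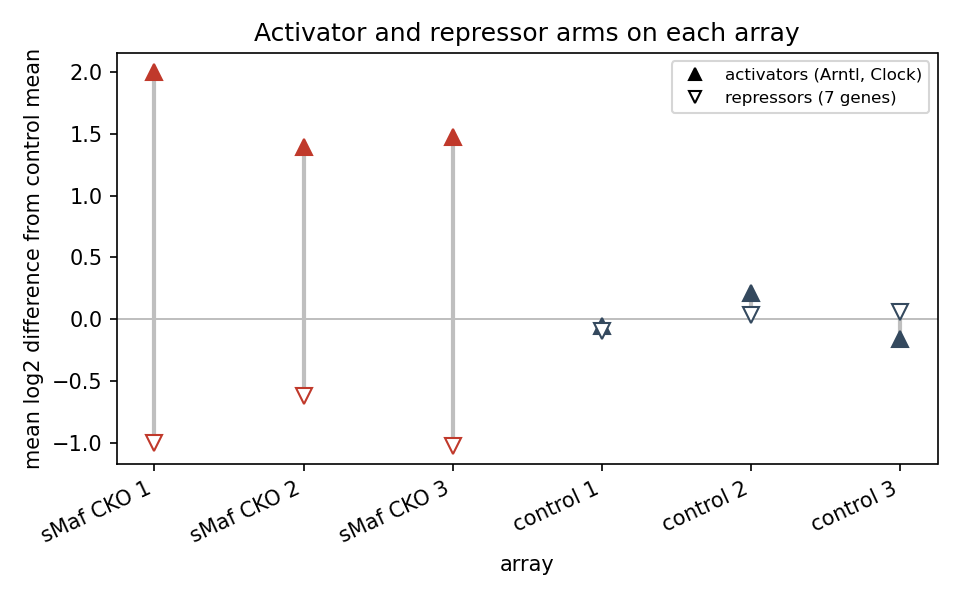
Mean log2 difference from the control mean (y axis) of the activators Arntl and Clock (filled triangles) and of the 7 repressors (open triangles) on each array (x axis), sMaf CKO in red and control in dark blue, joined by a grey line. The span between the arms is 2.99, 2.0 and 2.49 on the sMaf CKO arrays and between -0.22 and 0.18 on the control arrays.

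Further clock factors were counted in the same fit. Among the D-box and E-box output factors and other regulators of the loop, 12 of 14 genes were tested. By limma, 0 of them passed after adjustment and 6 reached an unadjusted p under 0.05, all 6 lower in sMaf CKO liver, where 16.8% of all genes did and 8.1% were lower. The median log2 difference of the 12 was -0.75, against -0.05 over all genes, and 9 were negative, as were 54.7% of all genes. Slide 1 alone gave a median of -0.65, slide 2 alone -0.72, and leaving out sMaf CKO replicate 1 gave -0.54. Dbp, a D-box activator directly driven by BMAL1 and CLOCK, read 4.39, 5.58 and 6.49 on sMaf CKO arrays 1, 2 and 3, against 7.17, 6.73 and 7.36 on control arrays 1, 2 and 3. The groups did not overlap, and sMaf CKO array 1 was the lowest. Its difference was -1.60 (SE 0.50, adjusted p = 0.188). The related D-box activators Tef (-1.15, adjusted p = 0.206) and Hlf (-0.87, adjusted p = 0.266) had the same sign, and the D-box repressor Nfil3 the opposite one (0.49, adjusted p = 0.494).

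Ciart, an E-box driven repressor of BMAL1 and CLOCK, read -2.93, -0.37 and -0.60 on sMaf CKO arrays 1, 2 and 3, against -0.07, 0.62 and 1.87 on control arrays 1, 2 and 3. The arrays did not overlap but spread widely in both genotypes. Its difference was -2.11 (SE 0.75, adjusted p = 0.229). The E-box repressors Bhlhe41 (-1.13, adjusted p = 0.179) and Bhlhe40 (-0.31, adjusted p = 0.527) were also negative, Bhlhe41 being well above background on 1 of 3 sMaf CKO and 2 of 3 control arrays. Rora, an activator of Arntl, differed by -0.63 (adjusted p = 0.349). Rorb and Arntl2 had too few arrays above background to be tested. Cipc, a further inhibitor of CLOCK, differed by -0.34 (adjusted p = 0.491), and Timeless and Tipin, which serve DNA replication, by 0.49 (adjusted p = 0.456) and 0.38 (adjusted p = 0.507).

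**Figure D4:**
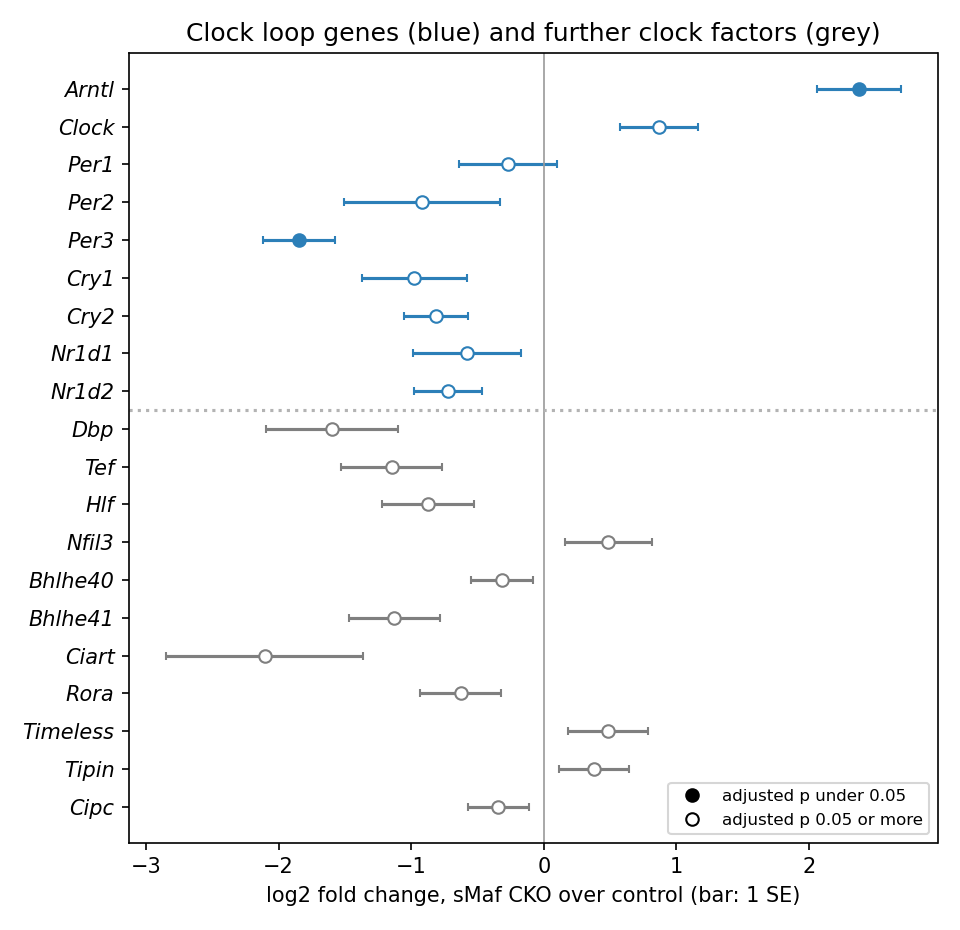
Log2 fold change of sMaf CKO over control (x axis, bar 1 SE, n = 3 arrays each) for the 9 clock loop genes (blue, above the dotted line) and the further clock factors named in the text (grey). Filled points mark an adjusted p under 0.05, which only Arntl (2.37) and Per3 (-1.84) reach, and Dbp, Tef, Hlf and Ciart lie between -2.11 and -0.87.

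Enzymes that act on the clock proteins were read next. Of 17 kinases, phosphatases and ubiquitin ligases, limma called 0 (2 with an unadjusted p under 0.05, where 16.8% of all genes had one, median 0.08). The 2 were Prkaa2, an AMP kinase subunit (-0.63, adjusted p = 0.194), and the deubiquitinase Usp2 (-1.55, adjusted p = 0.267), whose arrays overlapped. Of 17 co-regulators limma called 0 (2 with an unadjusted p under 0.05, median -0.12, or -0.29 without sMaf CKO replicate 1), led by the acetyltransferase Kat2b (-0.62, adjusted p = 0.205) and by Nampt, an enzyme of NAD synthesis (-0.89, adjusted p = 0.26).

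Among 22 genes listed as rhythmic output of the liver clock, 1 rose and 0 fell, where 0.385% and 0.157% of all genes did. Of the 22, 12 had an unadjusted p under 0.05, against 16.8% of all genes. In sMaf CKO liver 4 of these were higher (8.71% of all genes) and 8 lower (8.1%). The log2 differences of the 22 had the median -0.50, or -0.61 and -0.46 on slides 1 and 2 alone and -0.30 without sMaf CKO replicate 1. The gene that rose was Tubb2a, a beta tubulin (2.41, SE 0.37, adjusted p = 0.0477). It read 6.74, 5.52 and 5.76 on sMaf CKO arrays 1, 2 and 3, against 3.88, 3.75 and 3.17 on control arrays 1, 2 and 3. Elovl3 and Pdk4, with the largest differences of the list in each direction, were picked out after their values were seen. Elovl3, a fatty acid elongase with a strong daily rhythm in liver, read -6.38, -4.11 and -3.49 on sMaf CKO arrays 1, 2 and 3, against 0.05, -1.43 and -0.06 on control arrays 1, 2 and 3, a difference of -4.18 (SE 0.75, adjusted p = 0.0606, and 0.0354 with slide as a block). Pdk4, a kinase that restrains pyruvate oxidation, read 4.44, 0.89 and 2.38 on sMaf CKO arrays 1, 2 and 3, against -0.57, -1.59 and -1.51 on control arrays 1, 2 and 3. Its difference was 3.79 (SE 0.80, adjusted p = 0.0907), and its arrays did not overlap.

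Lists that mark other inputs to clock genes, and other cells in the tissue, were read on the same arrays. Over all genes, 0.385% rose and 0.157% fell by limma, and 16.8% had an unadjusted p under 0.05. Of 8 glucocorticoid response genes limma called 0 (1 with an unadjusted p under 0.05, median -0.43, or -0.19 and -0.87 on slides 1 and 2 alone and -0.58 to -0.28 when single arrays were left out), with Sgk1 at 0.77 (adjusted p = 0.19) and Fkbp5 at -0.91 (adjusted p = 0.335). Of 7 genes of a heat and serum response list limma called 0 (1, Rbm3, with an unadjusted p under 0.05). The list also holds Rbm3 (0.60, adjusted p = 0.28) and Cirbp (0.34, adjusted p = 0.57), which encode cold-inducible proteins. Its median of 0.21 (between -0.20 and 0.45 when single arrays were left out) therefore mixes genes of opposite response. Hsp90aa1 differed by 0.74 (adjusted p = 0.413). Of 9 fasting and feeding genes 1 rose, the hepatokine Fgf21 (3.42, adjusted p = 0.0367), at a list median of 0.19 (-0.20 on slide 1 alone, and -0.45 to 0.38 when single arrays were left out). By limma, 4 of these 9 had an unadjusted p under 0.05, 2 higher (8.71% of all genes) and 2 lower (8.1%). The list median therefore mixes genes of opposite direction. Of 9 immediate early genes 1 rose, the stress factor Atf3 (3.45, adjusted p = 0.0402), at a list median of 0.93 (0.54 without sMaf CKO replicate 1). An unadjusted limma p under 0.05 was reached by 4 of these 9, all 4 higher in sMaf CKO liver (8.71% of all genes). Jun, an AP-1 subunit of this list, had adjusted p = 0.0641, and 0.0381 with slide as a block. The part of such inputs in the clock gene differences was not tested.

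In bulk tissue, fewer cells of a type and less RNA per cell cannot be told apart. All 8 hepatocyte markers tested had negative differences by their brightest probe, as did 54.7% of all genes, though another Hnf4a probe gave 0.02. Of the 8, limma called 0 and 1 had an unadjusted p under 0.05, against 16.8% of all genes. Their median was -0.41, or -0.59 and -0.05 on slides 1 and 2 alone and -0.24 without sMaf CKO replicate 1. Their summed linear level was 1840 to 3095 in sMaf CKO liver and 2743 to 3164 in control liver. Such sums add levels of different probes, so the brightest probes of a list weigh most and a sum need not speak for every marker. All 6 Kupffer cell markers had positive differences by their brightest probe, as did 9534 of 21059 genes, though the second Adgre1 probe gave -0.26. Of the 6, limma called 0 and 3 had an unadjusted p under 0.05, against 16.8% of all genes. The list had a median of 0.71 and a summed level of 177 to 402 in sMaf CKO liver and 74.9 to 122 in control liver. Marco, a scavenger receptor, was the most different of the 6, at 7.69, 6.45 and 5.31 on sMaf CKO arrays 1, 2 and 3, against 3.30, 3.74 and 1.23 on control arrays 1, 2 and 3. Its difference was 3.73 (adjusted p = 0.0859, and 0.0107 with slide as a block), while the next, Cd5l, had 0.88 and the lowest, Timd4, 0.29. Of 7 markers of monocyte-derived macrophages 2 rose, Trem2 and Gpnmb, where 0.385% of all genes did. By limma 4 of the 7 had an unadjusted p under 0.05, against 16.8% of all genes, with 3 higher and 1 lower. Differences were positive for 5 of the 7 and negative for 2. The negative ones were Ly6c2 (-0.85, limma adjusted p = 0.289), whose arrays did not overlap, and Cx3cr1 (-0.03, adjusted p = 0.987). The list had a median of 1.03 (0.38 without sMaf CKO replicate 1) and a summed level of 32.6 to 59.9 in sMaf CKO liver and 33.7 to 43.7 in control liver. In control liver no array measured Gpnmb well above background, so its level there is a bound. Stellate cell (median 0.45), cholangiocyte (0.63), lymphocyte (0.18), neutrophil (0.31), erythroid (0.24) and endothelial (-0.19) lists had 0 members past the test, with 2, 1, 0, 0, 0 and 0 at an unadjusted p under 0.05. When single arrays were left out, these medians lay between 0.37 and 0.56 for stellate cells, 0.38 and 0.92 for cholangiocytes, -0.08 and 0.53 for lymphocytes, -0.08 and 0.61 for neutrophils, 0.09 and 0.82 for erythroid cells and -0.39 and 0.02 for endothelial cells. The part of such cells in the levels of Arntl and Per3 was not tested.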

How the data were processed

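For each of 6 liver samples 500 ng of RNA was amplified and labelled, per the labels' protocols. The authors' scans were read with Feature Extraction 10.7.3.1 (protocol GE1_107_Sep09, design build mm9), per the file headers, and the deposited processed intensity is background-subtracted and spatially detrended within the array. The authors' deposited value table holds log2 values and equals the scanner values scaled on the 75th percentile and centred per probe (r of 1.00 on each array over 41121 probes), so its scale, centring and direction are settled. Its column medians were -0.10, -0.11 and 0.09 on sMaf CKO arrays 1, 2 and 3 and 0.05, -0.02 and 0.08 on control arrays 1, 2 and 3.

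Genotype and replicate number were taken from the titles. Processed intensities on the log2 scale, with outlier and control spots left out and spots of 1 probe averaged, were scaled on each array's 75th percentile. A probe was kept if 3 or more of the 6 arrays measured it well above background (27859 of 41174). Of all probes, 26690 matched 1 symbol each and 14484 none, and none several. The brightest probe over all arrays stood for a gene, and 21059 genes and transcripts were tested in limma 3.58.1 (R 4.3.3) with genotype alone, with Benjamini-Hochberg adjustment across the whole table. The code was tested on simulated data. The alternatives are in the closing section. The members, lists, tests and alternatives were chosen with earlier results of these data known. The text names all members, small Maf genes and further clock factors except 1 that is not reported here, of each other list up to 4 genes past the test or else the 2 with the smallest p, and of marker lists those not above background in a genotype. Elovl3, Pdk4, Jun, Cirbp, Trem2, Ly6c2, Cx3cr1, Marco, Cd5l, Timd4, Adgre1 and Hnf4a were named after their values were seen. Sequences are RefSeq promoters on GRCm38.p6.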

Additional observations from a re-analysis of the deposited data

How the results depend on the processing

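The direction held for Arntl, Clock, Per2, Per3, Cry2, Nr1d1 and Nr1d2 under all 21 alternatives run for each and for Cry1 under all 20. Many of these reuse the same values. The other probe filters, the slide and replicate blocks and the trend and robust settings returned the reported log2 fold change for every member they tested. Those alternatives could not turn a sign, so the count is no measure of how firm a direction is. Arntl passed limma's threshold in 12 of 20 alternatives with a test (log2 fold change 1.69 to 2.68) and Per3 in 9 of 20 (-2.04 to -1.08). Per1 turned to 0.031 under spike-in scaling, 0.019 with array weights and 0.23 within slide 1, and lay between -0.62 and 0.0081 when single arrays were left out, turning without sMaf CKO replicate 3. Of the clock loop genes, 2 passed in the reported fit and 1 with normexp and within slide 1. With 0 passing limma's test, 6 had an unadjusted p under 0.05 under quantile normalization, 3 under spike-in scaling, 6 with probes above background on at least 1 array, 5 with no filter on dim probes and 6 at an adjusted p under 0.01. Of all 21059 genes, 3713 had such a limma p under quantile normalization and 1761 under spike-in scaling. It was reached by 3522 of 23746 genes with probes above background on at least 1 array, and by 3129 of 32301 with no filter. At an adjusted p under 0.01 the fit is the reported one, with 3541 of 21059. Leaving out single arrays gave 0 to 2 clock loop genes past the test. The count of all genes, 114 as reported, was 74 with normexp, 22 under quantile normalization, 204 under median scaling, 12 under spike-in scaling, 267 with probes above background on all 6 arrays, 26 on at least 1 and 1 with no filter. It was 340 with slide as a block, 513 with array weights, 308 with trend and robust settings, 196 within slide 1, 3 at an adjusted p under 0.01 and 3 to 294 when single arrays were left out. Spike-in scaling moved the median of all genes to 0.25, against -0.05, and relative to it Arntl stood at 2.43, Per3 at -1.79 and Per1 at -0.22. The activator minus repressor difference of 2.50 was 1.84 with normexp, 1.80 with the dim Npas2 probe, 1.74 without Arntl and 3.25 without Clock, and 2.25 to 2.74 when single arrays were left out. Replicate numbers do not pair the mice by the labels, and same-numbered arrays had correlations of deviations of 0.06, 0.17 and 0.42, with sMaf CKO array 1 closest to control array 2 (0.29). With the replicate block 291 genes were called, and 2 clock loop genes. Signal over background limits Npas2, dim on all arrays, and Cry1, well above background on 2 of 3 arrays of each genotype. The causes of these shifts were not tested.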
